A study of Mus musculus with 9 samples.

Results

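The respiratory chain and ATP synthase genes were followed in mouse bone marrow-derived macrophages under interleukin-4 (IL-4) and interleukin-27 (IL-27). They were taken by symbol from the deposited count table: the Nduf, Sdha to Sdhd, Uqcr, Cox4 to Cox8 and Atp5 genes, with Cyc1 and Cycs. This gave 97 of the 16200 genes listed. Of these, 84 encode subunits of complexes I to V, with 37 in complex I, 4 in complex II, 9 in complex III, 17 in complex IV and 17 in complex V. The others are Cycs, 8 assembly factors of complex I and 4 gene copies or pseudogenes. Ndufa4 and its relative Ndufa4l2 are counted here with complex IV. Genes of the mitochondrial genome, which encode the remaining subunits, were not analysed here.

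Marrow cells of wild-type mice were grown for 6 days with L929 cell supernatant, a source of macrophage growth factor, and polyA RNA was sequenced from 3 libraries in each of 3 groups. The groups were untreated cells, cells given IL-4 at 20 ng/ml for 12 h and cells given IL-27 at 100 ng/ml for 6 h. Dose and time differ between the cytokines, so cytokine, dose and time cannot be told apart between these groups, and it is not stated if IL-4 was also given to the IL-27 cells. Nothing in the labels says that replicates are separate animals or cultures. The p-values therefore describe the spread among the libraries alone, and that spread may be technical.

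Complex I takes electrons from NADH and complex II takes them from succinate, and both pass them to coenzyme Q. Complex III hands them on to cytochrome c, the small soluble carrier encoded by Cycs, and complex IV passes them to oxygen. Complexes I, III and IV pump protons across the inner mitochondrial membrane, and complex V, the ATP synthase, uses the return flow to make ATP. Macrophages activated with IL-4 are known for relying on oxidative phosphorylation.

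The libraries held 34577188 to 37951827 counts, and the 97 genes took 0.589% to 0.957% of them. Macrophage markers were abundant in all groups, with Csf1r at 2730, 2310 and 1410 CPM and Cd68 at 1590, 1560 and 1590 CPM (means of untreated, IL-4 and IL-27). CPM are counts scaled to library size with TMM factors, which serve to compare 1 gene between libraries. Untreated replicate 2 and IL-4 replicate 1 stood apart from the other libraries of their groups, with a chi-square per gene of 91.7 to 116 in pairs that held either and 5.43 to 8.86 in the other pairs. Their deviations from their group means were correlated at r = 0.906 over 9553 genes, which are not independent replicates. In both, low-GC transcripts were lower and high-GC transcripts higher than in their groups, with median log2 deviations of -0.42 and -0.43 in the lowest 10% by GC content and 0.24 and 0.30 in the highest 10%. The respiratory chain subunits deviated upward in both, by medians of 0.17 and 0.17 on the log2 scale, against 0.01 and 0.04 for all genes at 5 CPM or more. Their median GC content, 50.3%, lay near the 49.8% of all tested genes, but single subunits deviated either way in both libraries, Ndufs7 upward and Uqcrb downward. GC content was that of the longest GENCODE transcript of each symbol, and the annotation used for counting is not known. The part of these deviations in the results was not tested, and counts over the members are therefore given with and without these libraries. They were picked for leaving out by their spread in these data, so adjusted p-values without them may be too small. Over all genes, IL-4 calls then went from 3145 to 5909. Calls for genes that are not members, such as other gene lists and cell markers, rest on the fit with all 9 libraries alone.

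Under IL-4 the subunits of every complex were mostly higher than in untreated cells. Of 94 members with enough counts to test, 33 rose and 1 fell at an adjusted p under 0.05 (edgeR quasi-likelihood test, Benjamini-Hochberg over 12587 genes), beside 12.9% of all tested genes that rose and 12.0% that fell. As a share, 35.1% of the members rose. The median log2 fold change was 0.38 over the members and -0.01 over all tested genes, and 88 of 94 members had a positive value. Cox7a2l was the member that fell. The members not tested were Cox4i2, Ndufa4l2 and the copy Ndufb4c, each with at most 14 counts in a library. By complex, 11 of 37 tested subunits rose in complex I, 2 of 4 in complex II, 4 of 9 in complex III, 8 of 15 in complex IV and 6 of 17 in complex V. The complexes had close medians, at 0.32, 0.42, 0.35, 0.42 and 0.37 from I to V. With untreated replicate 2 and IL-4 replicate 1 left out, 71 members rose and 3 fell, beside 24.0% and 22.3% of all genes, and the median was 0.35. Without untreated replicate 1 alone, 21 members were called. Single libraries also moved the counts that rose by complex. In complex I the count was 7 without untreated replicate 1 or IL-4 replicate 2 and 17 without untreated replicate 2, which also gave 4 in complex II. Without untreated replicates 1 and 3 in turn it was 1 and 2 in complex III and 5 and 4 in complex IV.

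In the IL-27 cells the subunits lay near or somewhat below the untreated level. Of 94 members, 3 rose and 4 fell (edgeR adjusted p under 0.05), beside 14.0% of all tested genes that rose and 15.1% that fell. The median log2 fold change was -0.15 over the members, -0.19 over the subunits of complexes I to V and 0.00 over all genes. The 3 that rose were Cox6a2, Cycs and Ndufab1, and Cox6b2, Ndufb8 and Ndufb11 were among the 4 that fell. This count moved with single libraries, to 4 calls without untreated replicate 2, 17 without IL-4 replicate 1, and 3, 3 and 2 without IL-27 replicates 1, 2 and 3. Without both libraries that stood apart, 7 members rose and 27 fell, beside 24.2% and 25.3% of all genes, so the share that fell, 28.7%, was near the background. The subunits' median was then -0.06.

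Between the cytokines the difference was wider. Of 94 members, 58 were lower in the IL-27 cells than in the IL-4 cells and 1, Cox7a2l, was higher (edgeR adjusted p under 0.05), beside 21.0% of all tested genes that were lower and 18.8% that were higher. The median log2 difference was -0.49 over the members and 0.01 over all genes, and 86 of 94 values were negative. All 4 subunits of complex II were lower, as were 20 of 37 in complex I, 6 of 9 in complex III, 12 of 15 in complex IV and 14 of 17 in complex V. The complex medians were -0.50, -0.56, -0.45, -0.53 and -0.54 from I to V. Without IL-27 replicate 1 the count of members called was 38, and without IL-27 replicate 3 it was 33. Without IL-27 replicates 1, 2 and 3 in turn, 11, 12 and 10 subunits of complex I were lower. The count was 3 in complex III without replicate 1 or 3, 7 in complex IV without replicate 3, and 9 in complex V without replicate 2 or 3. Without both libraries that stood apart, 76 were lower and 1 higher, beside 30.3% and 27.9% of all genes, and the median was -0.41. All 3 comparisons share libraries in pairs, so their counts are not independent of each other.

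**Figure D1:**
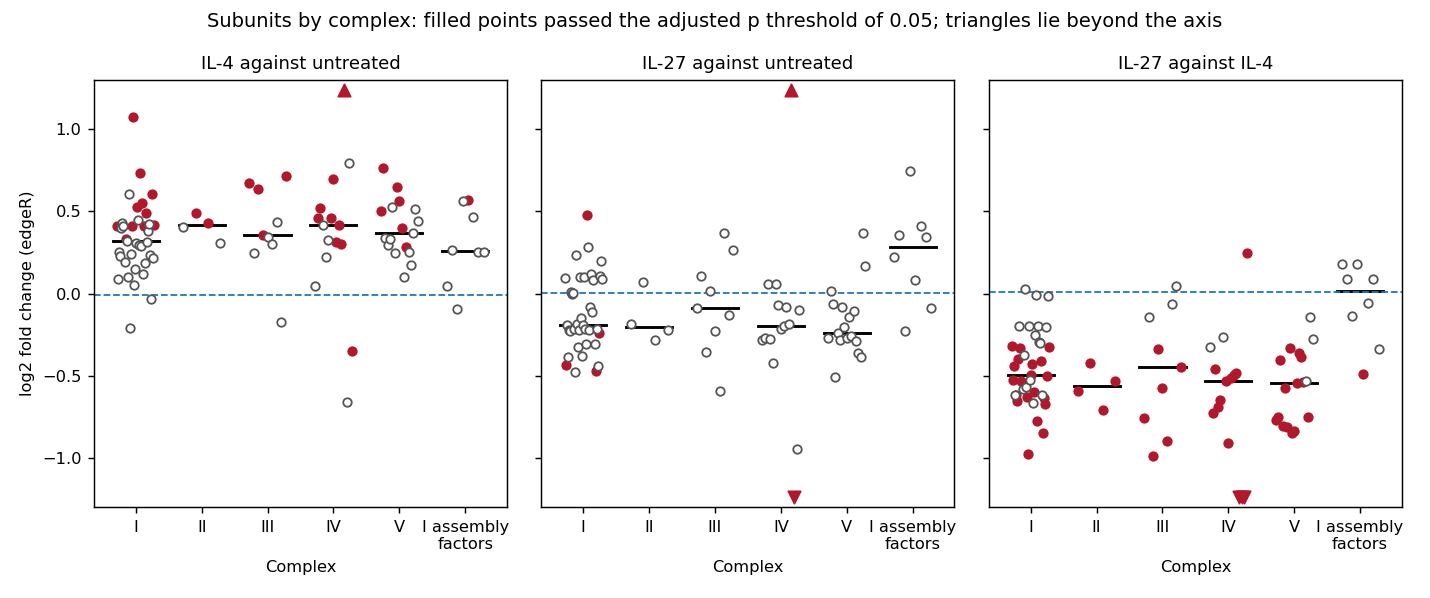
Log2 fold change of each tested subunit (points), by complex, in the 3 comparisons, with the 8 assembly factors of complex I apart. Filled points had an edgeR adjusted p under 0.05, black bars are complex medians, the dashed line is the median of all tested genes, and triangles mark Cox6a2, Cox6b2 and Cox7a1 where they lie beyond the axis. IL-4 medians lie between 0.32 and 0.42, and medians of IL-27 against IL-4 between -0.56 and -0.45.

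Library by library, the IL-4 group stood highest in every complex. The median log2 difference of the complex I subunits from the untreated mean was -0.09, 0.21 and -0.13 in untreated replicates 1 to 3, 0.51, 0.28 and 0.23 in the IL-4 libraries and -0.16, -0.13 and -0.14 in the IL-27 libraries. For complex V it was -0.09, 0.17 and -0.08, then 0.57, 0.38 and 0.32, and then -0.23, -0.19 and -0.28. In complex III the untreated and IL-27 libraries interleaved, at -0.08, 0.20 and -0.03 untreated and -0.10, -0.05 and -0.05 under IL-27. In all 5 complexes the 3 IL-4 libraries were the highest, the IL-27 libraries were the closest to each other, and IL-4 replicate 1 was highest of all. Summed over the subunits of complexes I to V, the deposited FPKM, a level scaled to gene length and library size, came to 7117, 7652 and 7126 in untreated libraries. The same sum was 10090, 9241 and 8969 in IL-4 libraries and 6467, 6477 and 6336 in IL-27 libraries, and the 3 groups did not overlap. In bulk RNA, more cells with a high level and more RNA per cell cannot be told apart.

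**Figure D2:**
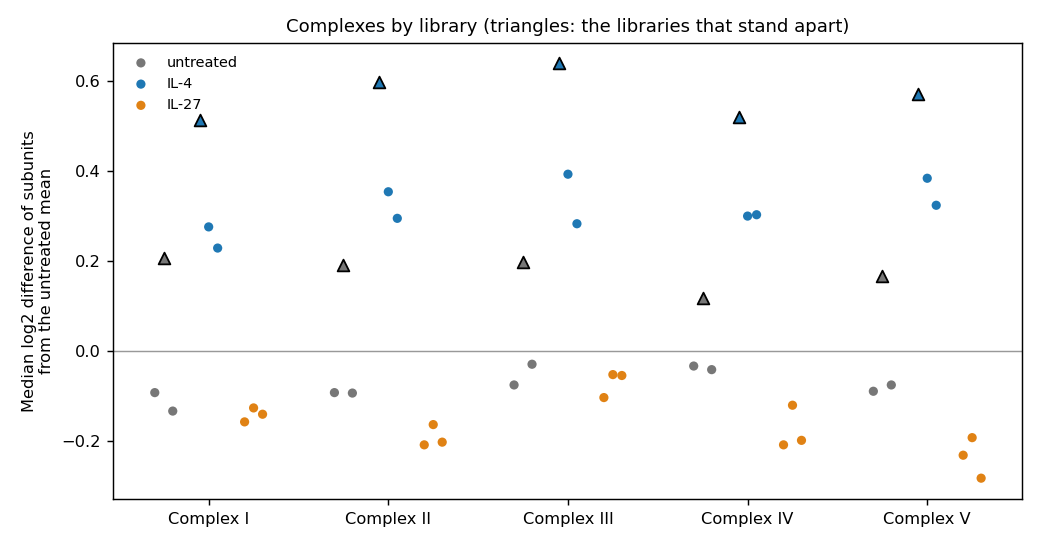
Median over the subunits of each complex of the log2 difference from the mean of the untreated libraries, for each of the 9 libraries (points, coloured by group). Triangles mark untreated replicate 2 and IL-4 replicate 1, which lie above the other libraries of their groups in every complex, and the IL-4 libraries lie above all others.

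The matrix arm of complex I binds NADH and carries electrons through a row of iron-sulphur clusters to coenzyme Q, and it holds 7 core subunits encoded in the nucleus. Of these 7, Ndufs1 alone passed the test for IL-4, although all 7 log2 fold changes were positive. Ndufs1, the subunit with the most iron-sulphur clusters, stood at 63.7, 57.4 and 62.9 CPM in untreated libraries, 77.8, 84.8 and 82.4 in IL-4 libraries and 61.4, 67.1 and 67.5 in IL-27 libraries. The IL-4 libraries lay above all others, and the log2 fold change was 0.41 ± 0.09 (SE, n = 3 per group, edgeR adjusted p = 0.00634).

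Among the other core subunits, Ndufv1 did not pass for either cytokine against untreated cells. Ndufv1, which binds the flavin where NADH is oxidised, had values of 0.43 ± 0.17 under IL-4 and -0.23 ± 0.17 under IL-27 (log2, edgeR adjusted p = 0.0909 and 0.331). Ndufs7 showed how far the libraries that stood apart can carry a subunit: it was at 38.8, 74.1 and 41.1 CPM untreated, 83.2, 49.5 and 48.0 under IL-4 and 38.2, 39.9 and 39.6 under IL-27. With both of those libraries in, its IL-4 and untreated groups overlapped and its log2 fold change was 0.23 ± 0.27, and with both left out it was 0.29 (edgeR adjusted p = 0.00255). Against the IL-4 cells, 6 of the 7 core subunits were lower in the IL-27 cells, Ndufs7 being the exception at -0.62 ± 0.27 (edgeR adjusted p = 0.0948). Of these 6, the calls for Ndufs1, Ndufs3, Ndufs8 and Ndufv2 were each lost when some single library was left out (edgeR adjusted p up to 0.0677, 0.0891, 0.146 and 0.138).

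Among the 30 accessory subunits of complex I, which surround the core, 10 rose under IL-4. Ndufa12, on the matrix arm, had the largest change of the complex, from 16.1, 16.5 and 14.0 CPM to 34.6, 33.9 and 29.6, and stood at 13.8, 16.8 and 19.3 under IL-27. The IL-4 libraries were all above the others, with log2 fold changes of 1.08 ± 0.14 against untreated (edgeR adjusted p = 0.000392) and, for IL-27 against IL-4, -0.97 ± 0.14 (edgeR adjusted p = 0.000331). Ndufab1, which is also the mitochondrial acyl carrier protein of fatty acid synthesis, was higher under both cytokines. It stood at 24.2, 16 and 23.4 CPM untreated, 31.4, 36.9 and 37.3 under IL-4 and 30.4, 28.9 and 29.2 under IL-27, with no overlap between any 2 groups. Its log2 fold change was 0.73 ± 0.15 for IL-4 (edgeR adjusted p = 0.00619) and 0.48 ± 0.15 for IL-27 (0.0396), and the IL-27 call was lost on leaving out untreated replicate 2 (0.0675), either of the IL-4 replicates 2 and 3 (0.0522 and 0.057) or any library of the IL-27 group (0.0916 to 0.113). Ndufa10, a subunit of the membrane arm, had little spread, at 58.7, 59.2 and 58.5 CPM untreated and 80.0, 89.4 and 84.6 under IL-4 (log2 fold change 0.53 ± 0.08, edgeR adjusted p = 0.00103).

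Ndufb8 and Ndufb11, both of the membrane arm, were the accessory subunits that fell under IL-27. Ndufb8 stood at 73.9, 89.3 and 69.8 CPM untreated, 122, 90.4 and 91.1 under IL-4 and 56.4, 56.9 and 55.1 under IL-27, and the IL-27 libraries lay below all others. Its log2 fold change against untreated was -0.47 ± 0.14 (edgeR adjusted p = 0.0269), lost without untreated replicate 2 (0.0683) or any IL-27 library (0.0762 to 0.0881). Ndufb11 had -0.24 ± 0.08 (edgeR adjusted p = 0.0495), a call lost on leaving out any of 7 single libraries (0.062 to 0.149), all but untreated replicate 2 and IL-4 replicate 1. Ndufa3, the subunit of complex I with the highest FPKM, and Ndufc2 did not pass in any comparison. For IL-4 against untreated their log2 fold changes were 0.15 ± 0.28 and 0.22 ± 0.20 (edgeR adjusted p = 0.753 and 0.481). Ndufa6, a matrix arm subunit, was among the few with a negative value under IL-4, -0.21 ± 0.10 (edgeR adjusted p = 0.174), and it fell once both libraries that stood apart were left out.

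Succinate dehydrogenase, complex II, is made of a flavoprotein (Sdha), an iron-sulphur protein (Sdhb) and a pair of membrane anchors (Sdhc, Sdhd), and it is also an enzyme of the tricarboxylic acid cycle. Sdhb stood at 93.2, 99.1 and 95.5 CPM untreated, 148, 127 and 130 under IL-4 and 102, 102 and 99.0 under IL-27. Every IL-4 library was above every other library, and the log2 fold change was 0.49 ± 0.08 for IL-4 (edgeR adjusted p = 0.00199), 0.07 ± 0.08 for IL-27 (0.553) and -0.42 ± 0.08 for IL-27 against IL-4 (0.00275). Sdhc rose by 0.43 ± 0.10 under IL-4 (edgeR adjusted p = 0.00964), and against IL-4 it had the smallest adjusted p of the complex, -0.71 ± 0.10 (0.000274). Sdha and Sdhd had 0.41 ± 0.14 and 0.31 ± 0.13 under IL-4 and did not pass (edgeR adjusted p = 0.0521 and 0.121). Both were lower in IL-27 than in IL-4 cells, by -0.59 ± 0.14 and -0.53 ± 0.13 (edgeR adjusted p = 0.006 and 0.00983). With both libraries that stood apart left out, all 4 subunits rose under IL-4, beside 24.0% of all tested genes.

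In complex III, Cyc1 (cytochrome c1) and Uqcrfs1 (the Rieske iron-sulphur protein) carry the electrons, and Uqcrc1 and Uqcrc2 form the large core proteins. Uqcrc1 stood at 120, 163 and 116 CPM untreated, 256, 184 and 178 under IL-4 and 104, 104 and 103 under IL-27, so that the 3 groups did not overlap. Its log2 fold change was 0.63 ± 0.16 for IL-4 (edgeR adjusted p = 0.0178) and -0.99 ± 0.16 for IL-27 against IL-4 (0.000884), the largest fall of the complex. Cyc1 rose by 0.67 ± 0.17 and Uqcrc2 by 0.35 ± 0.08 under IL-4 (edgeR adjusted p = 0.0143 and 0.0119), while Uqcrfs1 had 0.25 ± 0.09 (0.0805). The IL-4 calls of Uqcrc1 and Cyc1 were lost without untreated replicate 1 (0.0692 and 0.0562) or 3 (0.0689 and 0.0559), and that of Uqcrc2 without untreated replicate 1 (0.0523). Uqcrq, a small subunit, had the smallest adjusted p of the complex for IL-4. It went from 53.4, 67.0 and 55.5 CPM to 113, 87.7 and 87.9, and stood at 68.6, 73.9 and 68.8 under IL-27 (log2 fold change for IL-4 0.71 ± 0.13, edgeR adjusted p = 0.00261).

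The other small subunits of complex III did not pass for IL-4. Uqcr10 and Uqcr11 had log2 values of 0.34 and 0.30 (edgeR adjusted p = 0.176 and 0.421). Uqcrh, the hinge protein at the cytochrome c docking side and the subunit with the highest FPKM here, had -0.17 ± 0.09 under IL-4 and -0.13 ± 0.09 under IL-27 (log2, edgeR adjusted p = 0.208 and 0.324). Uqcrb was low in both libraries that stood apart, at 42.7, 23.2 and 45.1 CPM untreated, 33.2, 63.7 and 53.2 under IL-4 and 48.0, 49.1 and 46.5 under IL-27. It deviated there in the direction opposite to Uqcrc1, its IL-4 and untreated groups overlapped, and its log2 fold change of 0.44 ± 0.27 did not pass (edgeR adjusted p = 0.271). Uqcr11 was lower in IL-27 than in IL-4 cells, by -0.89 ± 0.25 (edgeR adjusted p = 0.0171), a call lost without any 1 of the IL-27 libraries (0.0501 to 0.0592). With both libraries that stood apart left out, 8 of the 9 subunits rose under IL-4 and Uqcrh fell, beside 24.0% and 22.3% of all tested genes.

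Cytochrome c itself rose under both cytokines. Cycs stood at 24.7, 21.9 and 24.6 CPM untreated, 40.6, 47.4 and 42.5 under IL-4 and 34.0, 37.1 and 30.3 under IL-27. The 3 groups did not overlap, with the IL-27 libraries between the others. The log2 fold change was 0.88 ± 0.11 for IL-4 (edgeR adjusted p = 0.000346) and 0.51 ± 0.11 for IL-27 (0.00666), and IL-27 against IL-4 gave -0.37 ± 0.11 (0.0235). The last was lost on leaving out IL-4 replicate 2 (0.0806) or either of the IL-27 replicates 1 and 3 (0.0677 and 0.0941), and the IL-27 rise was lost when the GC trend of each library was removed (0.108). Cyct, the testis form of cytochrome c and not a member by symbol, had no more than 0.0301 CPM in any library.

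Of the 11 widely expressed complex IV subunits encoded in the nucleus, which surround a catalytic core encoded in mitochondria, 7 rose under IL-4 and all 11 values were positive. Cox7b went from 59.5, 74.5 and 60.0 CPM to 117, 102 and 94.8 and stood at 59.1, 52.1 and 56.2 under IL-27, with no overlap between groups. Its log2 fold change was 0.70 ± 0.12 for IL-4 (edgeR adjusted p = 0.00221) and -0.91 ± 0.12 for IL-27 against IL-4 (0.000213). Cox5a, Cox5b, Cox7a2, Cox7c, Cox8a and Ndufa4 were the others that rose, by 0.30 to 0.52. Among them Cox8a (0.42 ± 0.13, edgeR adjusted p = 0.0467) and Ndufa4 (0.30 ± 0.10, 0.0446) lost their calls in 10 and 11 of 17 alternatives, with edgeR adjusted p up to 0.155 and 0.37; leaving out any IL-27 library was enough for either. The call of Cox5a was lost without untreated replicate 3 (edgeR adjusted p = 0.0506) and when the GC trend of each library was removed (0.15).

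Cox4i1, a subunit that takes part in the regulation of the enzyme by ATP, had the highest FPKM of all 97 genes and no call. It stood at 309, 492 and 303 CPM untreated, 502, 333 and 304 under IL-4 and 297, 315 and 297 under IL-27, and the 2 high libraries were those that stood apart. The IL-4 log2 fold change of 0.05 ± 0.22 turned negative without untreated replicate 1, untreated replicate 3 or IL-4 replicate 1 (-0.07, -0.08 and -0.21). Cox6a1, the widely expressed form of another subunit, had 0.42 ± 0.21 under IL-4 (edgeR adjusted p = 0.191).

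Cox7a2l, which links complexes III and IV into supercomplexes, went against the rest. It stood at 205, 191 and 215 CPM untreated, 158, 168 and 156 under IL-4 and 190, 191 and 190 under IL-27. The IL-4 libraries were below all others, with a log2 fold change of -0.35 ± 0.08 against untreated (edgeR adjusted p = 0.00909), while IL-27 against IL-4 gave 0.25 ± 0.08 (0.0285). The IL-4 fall was called in 16 of 17 alternatives, the exception being the fit on those 2 groups alone (0.0529). The rise of IL-27 over IL-4 was lost on leaving out either of the IL-4 replicates 1 and 3 (0.0534 and 0.0941) or any library of the IL-27 group (0.0845 to 0.0869). Cox7a2, the widely expressed subunit of the same family, rose by 0.46 ± 0.09 under IL-4 (edgeR adjusted p = 0.00543).

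Tissue-restricted complex IV isoforms were scarce, at 3.34 CPM or less in every library. Cox6a2, the heart and muscle form of Cox6a1, had 3, 7 and 5 counts in untreated libraries, 114, 85 and 38 in IL-4 libraries and 20, 20 and 36 in IL-27 libraries. Its groups of treated libraries lay above all untreated ones, with log2 fold changes of 3.87 ± 0.58 for IL-4 (edgeR adjusted p = 0.00102) and 2.25 ± 0.61 for IL-27 (0.019), the second lost without untreated replicate 1 (0.0681), untreated replicate 3 (0.0561) or IL-27 replicate 3 (0.0733). The span of Cox6a2 overlaps that of the integrin gene Itgad, and no source used here gives the counting strand, so reads of the 2 genes may not be told apart. In all, 20 members overlap another counted gene in the RefSeq table, among them Uqcrq, Uqcrc2, Uqcrh, Cox7a2, Atp5a1, Atp5d, Atp5j, Atp5md, Ndufb11 and Ndufv2, and the same limit holds for them. Cox7a1, the heart and muscle form of Cox7a2, had 36, 21 and 21 counts untreated, 57, 40 and 47 under IL-4 and 15, 14 and 13 under IL-27, and was lower in IL-27 than in IL-4 cells (-1.74 ± 0.37, edgeR adjusted p = 0.00422). Cox6b2, the testis form of Cox6b1, had 30, 25 and 35 counts untreated, 29, 21 and 10 under IL-4 and 2, 7 and 5 under IL-27. Its fall under IL-27 (-2.71 ± 0.58, edgeR adjusted p = 0.00599) was called in every alternative that tested it. Cox4i2, the lung form, and Ndufa4l2, known from hypoxic cells, were not tested, with at most 14 counts in a library.

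**Figure D3:**
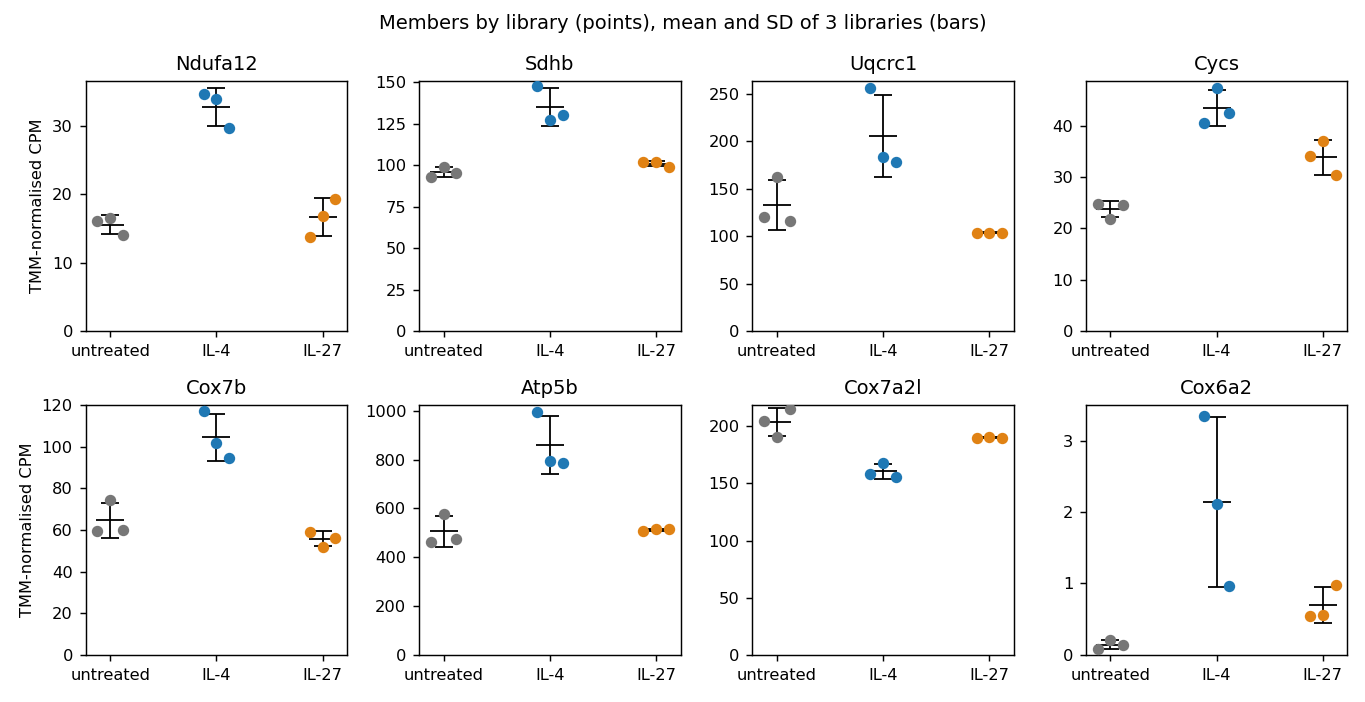
TMM-normalised CPM of 8 members in each library (points), with mean and SD over n = 3 libraries per group (bars); every axis starts at 0. The IL-4 libraries lie above the untreated and IL-27 libraries for Ndufa12, Sdhb, Uqcrc1, Cycs, Cox7b and Atp5b, and below them for Cox7a2l; Cox6a2 stays at or under 3.34 CPM.

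In ATP synthase the F1 head holds the catalytic Atp5b and Atp5a1 around the central stalk of Atp5c1, Atp5d and Atp5e. Atp5b was among the strongest members, with 464, 579 and 474 CPM untreated, 997, 793 and 787 under IL-4 and 506, 514 and 514 under IL-27. All IL-4 libraries were above all others, and the log2 fold change was 0.77 ± 0.12 for IL-4 (edgeR adjusted p = 0.00123), 0.02 ± 0.12 for IL-27 (0.931) and -0.75 ± 0.12 between the cytokines (0.000717). Atp5a1 rose by 0.50 ± 0.16 under IL-4 (edgeR adjusted p = 0.0448), a call lost on leaving out any library other than untreated replicate 2 and IL-4 replicate 3 (0.0591 to 0.145). Atp5c1 had 0.34 ± 0.12 (edgeR adjusted p = 0.0639). All 5 subunits of the head and central stalk were lower in IL-27 than in IL-4 cells, with a median of -0.75, and the call of Atp5c1 among them was lost on leaving out IL-4 replicates 2 or 3 or any IL-27 library (edgeR adjusted p from 0.0578 to 0.0769).

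The c ring turns as protons pass, and Atp5g1, Atp5g2 and Atp5g3 encode the same mature ring protein from separate genes. Atp5g3 went from 114, 135 and 115 CPM to 210.0, 180.0 and 179 under IL-4 and stood at 106, 105 and 105 under IL-27. These 3 groups did not overlap, with log2 fold changes of 0.65 ± 0.10 for IL-4 (edgeR adjusted p = 0.00108) and -0.85 ± 0.10 for IL-27 against IL-4 (8.87e-05), the smallest adjusted p of any member. Atp5g1 and Atp5g2 had 0.53 ± 0.21 and 0.25 ± 0.10 under IL-4 and did not pass (edgeR adjusted p = 0.0916 and 0.0948). In the peripheral stalk, which holds the head still, Atp5o, Atp5pb and Atp5j rose under IL-4 and Atp5h did not pass, and all 4 were lower in IL-27 than in IL-4 cells. None of the 5 subunits of the membrane part and dimer interface passed for IL-4, among them Atp5k at 0.25 ± 0.10 (edgeR adjusted p = 0.112). With both libraries that stood apart left out, 16 of 17 subunits rose under IL-4, beside 24.0% of all tested genes. All 17 were then lower under IL-27 than under IL-4, beside 30.3% of all tested genes. Against untreated cells 11 of the 17 then fell under IL-27, beside 25.3% of all tested genes. Only 2, Atp5b and Atp5md, rose, beside 24.2%.

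Atpif1, which encodes the inhibitor that stops ATP synthase from running backwards, is not a member by symbol but belongs beside these genes. It stood at 84.6, 81.7 and 82.8 CPM untreated, 103, 104 and 96.9 under IL-4 and 74.6, 74.5 and 73.3 under IL-27, and the 3 groups did not overlap. Its log2 fold change was 0.29 ± 0.07 for IL-4 (edgeR adjusted p = 0.0189), -0.16 ± 0.07 for IL-27 (0.128) and -0.45 ± 0.07 for IL-27 against IL-4 (0.000902).

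**Figure D4:**
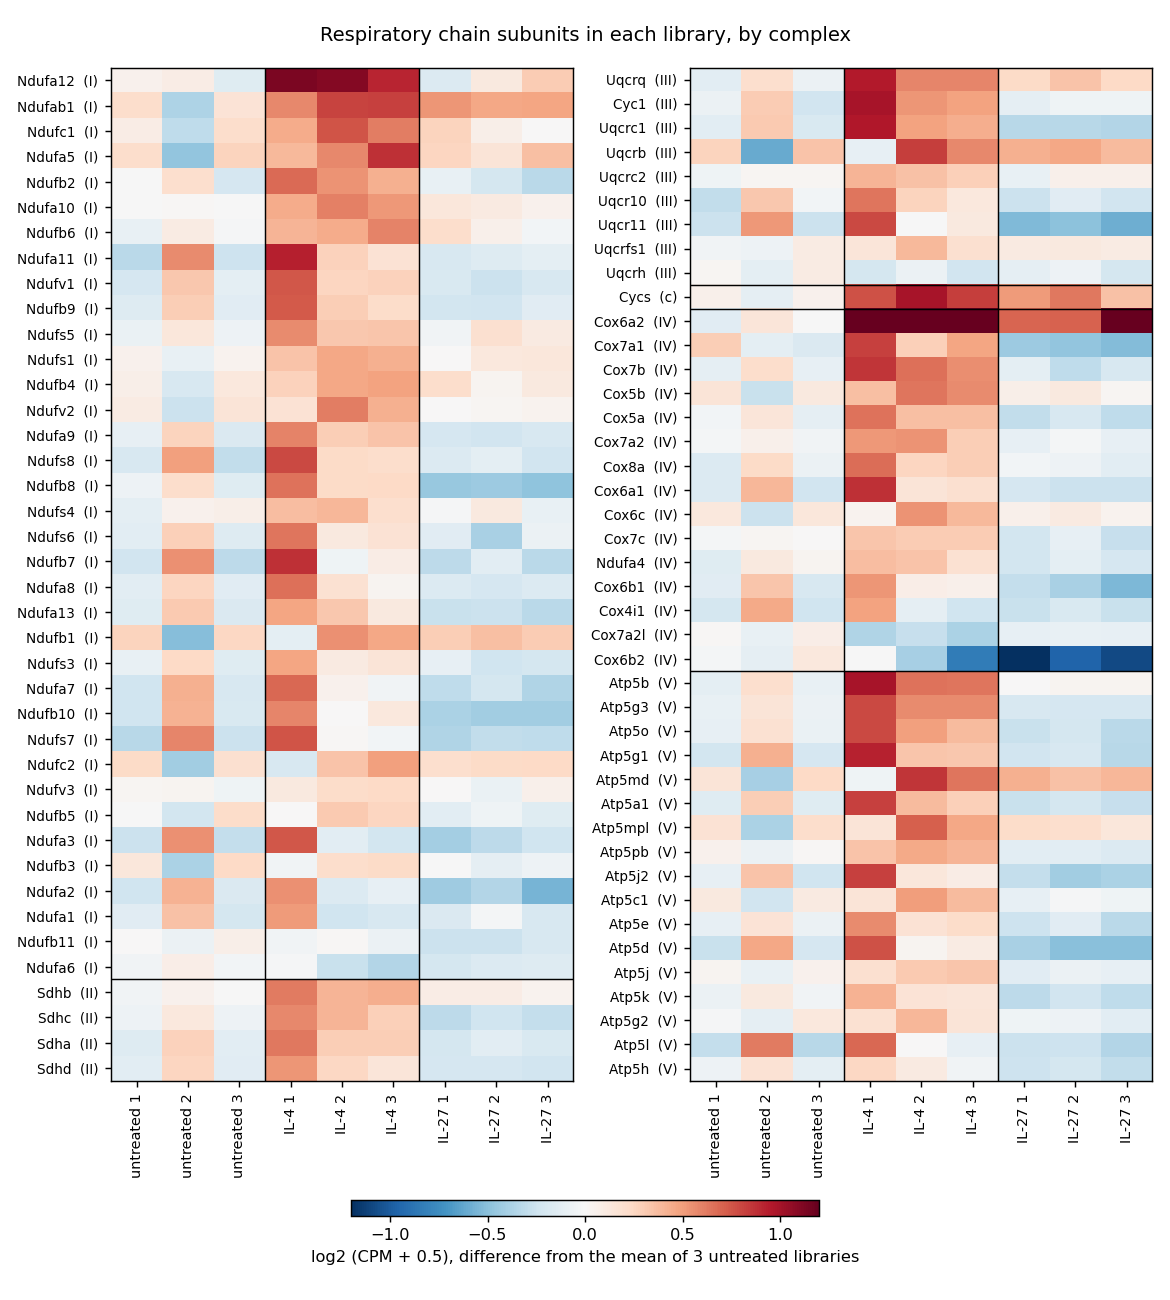
Tested subunits and Cycs (rows, complex in brackets, c for cytochrome c) in each of the 9 libraries (columns), as log2 (CPM + 0.5) minus the mean of the untreated libraries; the colour scale ends at 1.2, which Cox6a2 exceeds. The IL-4 columns are mostly red, untreated replicate 2 and IL-4 replicate 1 share the same subunits that are darker or lighter than in their groups, and the IL-27 columns resemble each other.

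Per length of gene, subunits of the same complex were far from equal. In untreated libraries the mean FPKM ran from 9.72 for Ndufab1 to 140 for Ndufa3 in complex I, from 38.1 for Uqcrq to 162 for Uqcrh in complex III, and from 31.2 for Cox5a to 473 for Cox4i1 among the widely expressed complex IV subunits with Cox7a2l. In complex V it ran from 42.1 for Atp5mpl to 266 for Atp5b. Complex II had the narrowest range, with its 4 subunits between 73.5 and 89.0 FPKM. This was a spread of 1.21-fold against 14.4-fold, 4.25-fold, 15.2-fold and 6.33-fold in complexes I, III, IV and V. Those spreads were taken over 37, 9, 12 and 17 subunits, and a spread from lowest to highest can widen with the number of subunits. The part of this number in the contrast was not tested. The spread stayed under 1.6-fold in complex II under IL-4 (1.28-fold) and IL-27 (1.53-fold). Median FPKM rose from complex I (40.4) over III (68.2), II (83.3) and V (121) to IV (169) in untreated cells, and the order was the same in IL-4 and IL-27 libraries. These levels rest on the gene length the authors divided by, which is long for some of these genes, such as 3153 bases for Cox5a, where the median subunit had 768 bases and the median tested gene 3562. A long listed length lowers FPKM, and its part in these spreads was not tested.

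**Figure D5:**
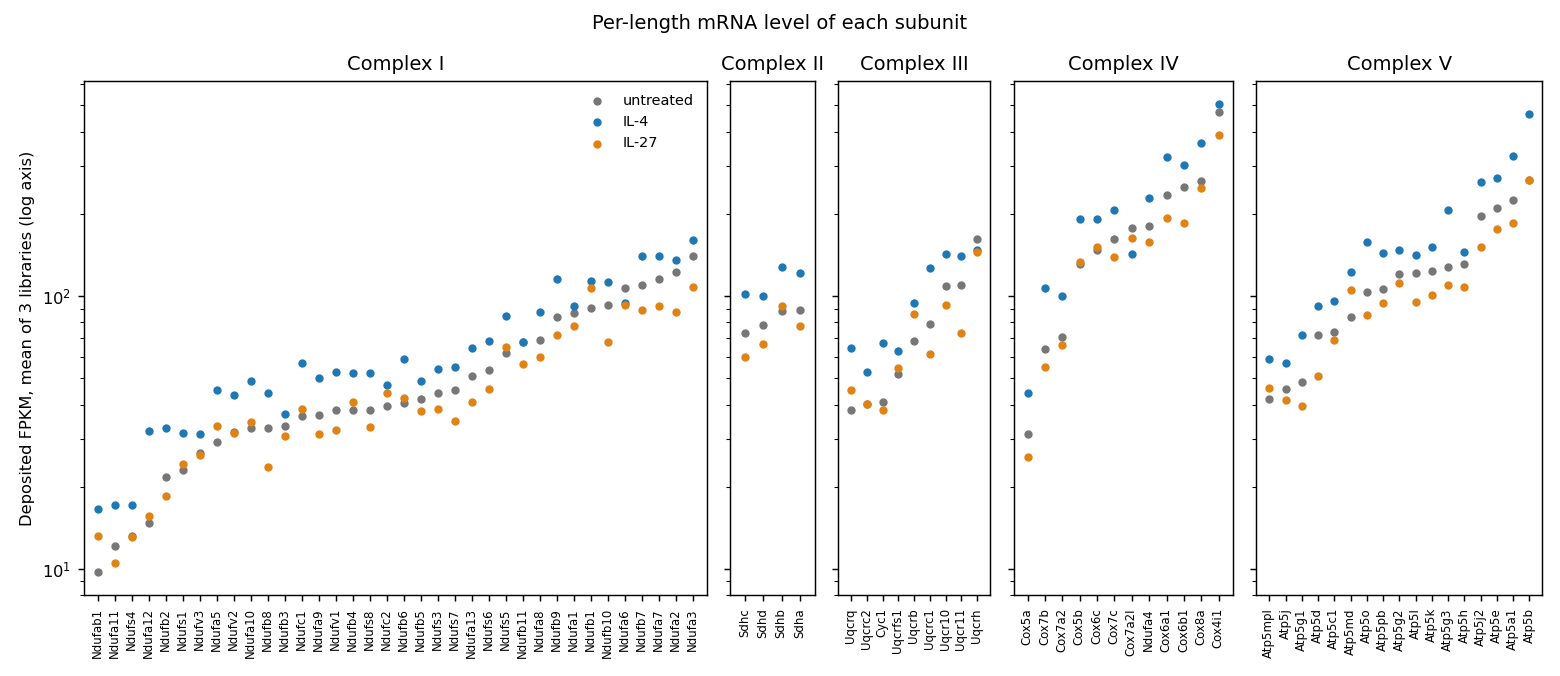
Mean deposited FPKM over 3 libraries (log axis) of tested subunits in the 3 groups, ordered within each complex by the untreated level; Cox6a2, Cox6b2 and Cox7a1, at 3.27 FPKM or less, are left out. The 4 subunits of complex II lie within 1.21-fold in untreated cells, whereas the 12 shown of complex IV span 15.2-fold.

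Of 8 complex I assembly factors, Ndufaf5 rose under IL-4, from 3.95, 3.22 and 4.16 CPM to 5.28, 5.49 and 6.06 (log2 fold change 0.57 ± 0.16, edgeR adjusted p = 0.0248), and none passed for IL-27. Ndufaf4 stood at 9.73, 5.93 and 9.85 CPM untreated, 8.10, 15.6 and 14.1 under IL-4 and 14.7, 14.5 and 13.6 under IL-27. Its IL-27 libraries lay above all untreated ones, with a log2 value of 0.74 ± 0.25 (edgeR adjusted p = 0.0514). Ndufaf4 did pass for IL-27 without both libraries that stood apart and when the GC trend of each library was removed (edgeR adjusted p = 0.000397 and 0.00187). With DESeq2 it passed as well (DESeq2 adjusted p = 0.0192), but not with the replicate number as a block (edgeR adjusted p = 0.0976). The single call for IL-4 is near the 12.9% of all tested genes that rose. The median of the assembly factors was 0.26 for IL-4 and 0.02 for IL-27 against IL-4, where the complex I subunits had 0.32 and -0.50, and these differences were not tested. The copies Ndufab1-ps, Ndufb4b and Ndufs6b, at 2.82 CPM or less in any library, did not pass anywhere, and how reads shared with Ndufab1, Ndufb4 or Ndufs6 were counted is not stated, so their values are uncertain.

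Other genes of the pathway were counted from lists of assembly factors, coenzyme Q synthesis, electron donors and regulators, with all 9 libraries in the fit. Of 48 tested assembly factors for complexes I to V beyond the Ndufaf genes, 6 rose and 1 fell under IL-4, 3 rose and 2 fell under IL-27, and 1 was higher and 8 were lower in IL-27 than in IL-4 cells. Of all tested genes, 12.9% rose and 12.0% fell under IL-4, 14.0% and 15.1% under IL-27, and 18.8% and 21.0% were higher and lower between the cytokines. The counts of this list were near or under those shares, and those of the short lists that follow are to be read against them. Surf1, needed to build complex IV, was the one that fell under IL-4, from 31.9 ± 3.73 to 21.5 ± 0.648 CPM (log2 fold change -0.57 ± 0.10, edgeR adjusted p = 0.00318), and Cox10 and Cox15, which make its heme, rose by 0.80 ± 0.18 and 0.44 ± 0.10 (0.00819 and 0.0108). Fmc1, an assembly factor of ATP synthase, fell under IL-27 from 4.52 ± 1.05 to 2.33 ± 0.151 CPM (-0.96 ± 0.24, edgeR adjusted p = 0.0125). Of 13 genes of coenzyme Q synthesis, 3 rose and 2 fell under IL-4, with Pdss1, Coq7 and Coq3 up and Coq10a and Coq8a down, and 2 rose under IL-27. Of 7 other enzymes that feed electrons to coenzyme Q, Etfb and Etfa, which carry electrons from fatty acid oxidation, rose under IL-4 by 0.79 ± 0.12 and 0.45 ± 0.08 (edgeR adjusted p = 0.000988 and 0.0023). Under IL-27, 2 of the 7 rose and 1 fell. The mitochondrial glycerol phosphate dehydrogenase Gpd2 rose from 26.5 ± 1.80 to 40.7 ± 3.02 CPM (0.62 ± 0.10, edgeR adjusted p = 0.00141). Etfa also rose, by 0.27 ± 0.08, and Sqor fell, at -0.539 ± 0.155 (edgeR adjusted p = 0.0261 and 0.0256).

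Among 14 tested regulators of mitochondrial genes, 3 rose under each cytokine and none fell, beside 12.9% and 14.0% of all tested genes that rose. Myc, Ppargc1b and Tfb1m rose under IL-4, Myc the most, from 17.7 to 73.1 CPM (log2 fold change 2.05 ± 0.14, edgeR adjusted p = 6.4e-06). Ppargc1b, a coactivator of genes for oxidative metabolism, was at 6.94 ± 0.429 CPM untreated, 21.9 ± 2.57 under IL-4 and 12.4 ± 0.631 under IL-27 (log2 fold change 1.65 ± 0.13 and 0.84 ± 0.12, edgeR adjusted p = 1.48e-05 and 0.000724). Its relative Ppargc1a was at 0.219 CPM or less in each group mean. Nrf1, Gabpa and Yy1, whose products are known to bind promoters of nuclear respiratory genes, did not pass in any comparison, with log2 values from -0.18 to 0.37. Gabpb1, the partner of Gabpa, rose under IL-27 from 11.3 ± 2.30 to 24.1 ± 0.991 CPM (1.09 ± 0.17, edgeR adjusted p = 0.00114).

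The promoters of the members were searched for short motifs of these 3 factors. RefSeq promoters on GRCm38.p6, 250 bases before to 50 after the start, were matched by gene ID for 77 of the 97 members, and both strands were read. GCGCATGC, the core of the NRF1 site, stood in 16.9% of the 77 genes and in 5.96% of 10083 tested genes with a promoter. AAGATGGCG, of YY1, stood in 10.4% and 3.55%, and CCGGAAGT, of GABP, in 6.49% and 9.11%. NRF1 matches on both strands can overlap within a palindromic site. Any of the 3 was present in 32.0% of 25 subunits and cytochrome c that rose under IL-4 and in 31.8% of 44 that did not. This split rests on the fit with all 9 libraries, where a gene that was not called can still have a positive change. The NRF1 letters alone were in 3 of those 25 (12.0%) and 8 of those 44 (18.2%). A match is a run of letters, not a shown binding site. The 120 bases before the start are printed for some of the members described above that hold a motif (in capitals, on either strand). They are also printed for Ndufa12, the subunit of complex I with the largest rise, whose window holds none. Atp5j has 2 starts in the table, and the window of the other holds no motif. Each is written 5′ to 3′ on the strand of its gene.
Cycs, NRF1, chr6:50566570-50566689, minus strand: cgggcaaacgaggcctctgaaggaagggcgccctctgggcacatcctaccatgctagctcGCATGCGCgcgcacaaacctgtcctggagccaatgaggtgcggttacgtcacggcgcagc
Sdhb, NRF1, chr4:140961151-140961270, plus strand: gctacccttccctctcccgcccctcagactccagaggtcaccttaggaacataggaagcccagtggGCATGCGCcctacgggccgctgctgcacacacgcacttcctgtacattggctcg
Uqcrh, GABP, chr4:116075071-116075190, minus strand: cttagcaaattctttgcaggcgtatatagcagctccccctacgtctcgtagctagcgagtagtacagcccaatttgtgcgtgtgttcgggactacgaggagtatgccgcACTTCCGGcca
Atp5j, YY1, chr16:84834977-84835096, minus strand: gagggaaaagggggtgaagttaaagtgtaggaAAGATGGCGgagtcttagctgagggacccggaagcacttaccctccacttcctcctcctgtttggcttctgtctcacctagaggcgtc
Ndufa12, no match, chr10:94198915-94199034, plus strand: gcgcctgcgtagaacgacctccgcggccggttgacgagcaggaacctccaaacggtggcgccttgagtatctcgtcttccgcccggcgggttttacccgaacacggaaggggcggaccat
In Cycs the match began 60 bases and in Sdhb 54 bases before the start, and both genes rose under IL-4. The windows of Ndufa6, Ndufa8, Ndufa11, Ndufaf4, Atp5g2 and Atp5k, not printed, also held NRF1 letters. None of these genes was called for IL-4 with all 9 libraries in the fit. Without both libraries that stood apart, Ndufa6 fell and the others rose (edgeR adjusted p from 1.77e-05 to 0.0223). Of all tested genes, 22.3% then fell and 24.0% rose. Uqcrh, with its match 11 bases before the start, had no call for either cytokine against untreated cells with all 9 libraries. Without both libraries that stood apart it fell under IL-4 and under IL-27 (edgeR adjusted p = 0.0139 and 0.0112). Atp5j rose under IL-4 by 0.28 ± 0.08 (edgeR adjusted p = 0.0323).

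Markers of other cells moved between the groups as well. The 5 fibroblast markers summed to 676 to 770 CPM in untreated, 503 to 709 in IL-4 and 1030 to 1270 in IL-27 libraries. All 4 that were tested were higher in IL-27 than in either other group (edgeR adjusted p under 0.05), while Lum was near 0. Among these 4, Pdgfrb alone was lower under IL-4 than in untreated cells (edgeR adjusted p = 0.00231). The 7 macrophage markers summed to 22700 to 31400, 14400 to 18000 and 24100 to 26100 CPM, most of it Lyz2. Mertk, Fcgr1 and Lyz2 fell under IL-4, by 0.79, 1.42 and 1.01 on the log2 scale, and Csf1r, Mertk, Adgre1 and Fcgr1 fell under IL-27, by 0.95, 1.17, 0.67 and 0.34 (edgeR adjusted p from 9.97e-06 to 0.0445). The endothelial markers Kdr and Cdh5 were at 5.33, 2.35 and 23.7 CPM and at 0.715, 0.46 and 1.76 CPM in untreated, IL-4 and IL-27 means. Both were higher in IL-27 than in either other group (edgeR adjusted p from 2.61e-07 to 0.00965), and Kdr was lower under IL-4 than in untreated cells (0.000442). Markers of T and B cells and of mast cells, basophils and eosinophils summed to at most 0.709 CPM in any library, and Mpo, Elane, Flt3 and Ccr7 were at or near 0. S100a8 of the neutrophil list was at 4.09, 2.28 and 8.32 CPM, lower under IL-4 and higher under IL-27 than in untreated cells (edgeR adjusted p = 0.0205 and 0.00542), and Zbtb46 of the dendritic list was at 0.492, 1.14 and 0.557 CPM with no call. The part of these markers in the results was not tested.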

How the data were processed

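PolyA RNA of 9 libraries, 3 per group, was sequenced, and the authors deposited whole-number read counts per gene and FPKM values. The submitters' processing notes name fastp, HISAT2, HTSeq and, as genome build, GRCm39, with no settings. Annotation, counting strand and the treatment of shared reads: not given in the sources used here. Counts scaled to library totals and divided by the deposited FPKM values gave gene lengths whole within 1e-06 bases for 100% of genes.

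Counts were tested in R 4.3.3 with edgeR 4.0.16 (limma 3.58.1), with TMM factors, filterByExpr (minimum count 10), all 9 libraries in 1 quasi-likelihood fit by group, and Benjamini-Hochberg adjustment over 12587 genes at 0.05. Depth was 34577188 to 37951827 counts per library, and the common dispersion was 0.0272. SE is approximate, the size of the log2 change divided by sqrt(F). Alternatives were DESeq2 1.42.0, RLE factors, 2 other filters, fits on 2 groups, a replicate block, libraries left out, and, added after seeing the data, GC offsets. The pair of libraries left out together was also picked from these data, because they stood apart within their groups.

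Members and gene lists were chosen with earlier results of these data known. Named members are up to 8 in each direction with the largest called change per comparison, the highest FPKM and smallest adjusted p per complex, the catalytic core and the isoforms. Ndufa6, Ndufa10, Uqcrb, Ndufaf4, and any other gene outside this rule, were picked with their values in view. A member is counted but not reported by name here. The deposited symbols Atp5a1, Atp5b and Atp5c1 are the subunits now called Atp5f1a, Atp5f1b and Atp5f1c. RefSeq promoters come from GRCm38.p6, not the files' build, and promoters that were not matched were not used here.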

Additional observations from a re-analysis of the deposited data

How the results depend on the processing

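Over the alternatives the IL-4 count of 34 members called was 22 with only those 2 groups in the fit, 74 without both libraries that stood apart, and 21 to 44 when single libraries were left out. The IL-27 count of 7 was 34 without both libraries that stood apart, 13 with GC offsets, 11 with DESeq2, 3 with the replicate block, and 2 to 17 when single libraries were left out. For IL-27 against IL-4 the 59 became 33 to 68 when single libraries were left out. Libraries with the same replicate number had correlations of their deviations from -0.809 to 0.682. The libraries that stood apart weigh on these values, which therefore cannot decide if the numbers mark a shared animal or day. With the replicate block 25 members were called for IL-4 and 44 for IL-27 against IL-4. Other counts over all members stayed within 1.5 times. By complex, the counts that rose under IL-4 went in complexes I, II and III from 11, 2 and 4 to 18, 4 and 8 with GC offsets, and from I to V to 29, 4, 8, 11 and 16 without both libraries that stood apart. They were 7 in complex I and 5 in complex IV with 2 groups in the fit.

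Signs turned only for uncalled values. When single libraries were left out, the IL-4 log2 fold change ran from -0.205 to 0.314 for Cox4i1, -0.233 to 0.477 for Ndufa3 and -0.073 to 0.591 for Ndufs7, each lowest without IL-4 replicate 1, and Cox4i1 was also -0.065 and -0.076 without untreated replicates 1 and 3. For IL-27 it ran from -0.043 to 0.12 for Atp5b, -0.368 to 0.072 for Ndufs8, -0.111 to 0.09 for Ndufv2, -0.02 to 0.064 for Uqcrc2, -0.2 to 0.077 for Cyc1, -0.069 to 0.134 for Cox5b and -0.161 to 0.041 for Cox8a. Between the cytokines Ndufc2 ran from -0.197 to 0.123. Without both libraries that stood apart, Ndufs8, Ndufv2, Cyc1, Cox5b and Cox8a were 0.071, -0.112, 0.077, -0.07 and 0.041 for IL-27. With GC offsets Ndufs1, Ndufv2, Uqcrc2, Cyc1 and Cox8a were -0.004, -0.164, -0.11, 0.101 and 0.085. The cause was not tested.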
